A study of Drosophila melanogaster with 216 samples.

Results

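The genes described here are 18 Drosophila melanogaster genes that carry only an annotation number (a symbol made of CG and digits, the form given to a predicted gene without a name of its own) and whose transcripts were more abundant in old than in middle-aged flies of both sexes. They were chosen from flies kept on the standard adult diet: the mean log2 value at 90% cohort mortality (old) had to exceed the mean at 10% cohort mortality (middle-aged) by at least 0.5 in females and in males, and the old mean had to reach 6 in each sex. Of 5207 such CG genes read by a probe set of their own, among 11982 genes in all, 2938 reached the level, 70 passed the difference in females, 93 passed it in males, and 18 met every condition. Each of the 18 was read by 1 probe set.

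Expression was measured on Affymetrix Drosophila 2.0 arrays in whole bodies of virgin flies from a laboratory stock population, with 5 flies pooled per array. Larvae were raised on 0.25SY, 1SY or 2.5SY food, which held 0.25, 1 or 2.5 times the sugar and yeast of the standard food, and the emerging adults of each larval diet were divided over the same 3 foods until death. Females and males were collected on day 1 after eclosion, at middle age and at old age, and each of the 54 resulting groups has 4 arrays (216 in all). The arrays of a later-age group are pools drawn from 1 cohort, so that p-values measure the spread between pools of that cohort. The old flies were the survivors of their cohort, and collection followed mortality, so that groups with different lifespans also differed in days of age: ageing, survival and days of age cannot be told apart here. In whole bodies, more cells that make a transcript and more transcript per cell cannot be told apart either.

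Values are log2, and a difference of 1 is a 2-fold change in the signal of a probe set. The median log2 value of an array averaged 6.79 ± 0.0686 in females (SD, n = 108) and 7.29 ± 0.0587 in males (SD, n = 105), so levels are given within a sex and not compared between the sexes. For 3 old male arrays the profile went against the label, and they were left out of the male values and tests below. The array of larval 0.25SY and adult 2.5SY replicate 1 had an eggshell and yolk gene mean of 12.44, against 5.85 to 8.30 in the other 33 old male arrays, and a testis gene mean of 5.47, against 10.26 or more. The array of larval 1SY and adult 0.25SY replicate 1 stood at 8.94 and 9.72 on the same lists. The array of larval 0.25SY and adult 1SY replicate 3, which the choice of genes also left out, had a muscle gene mean of 13.28 and an immune gene mean of 9.37, both within the ranges of the 36 male arrays of day 1 (13.15 to 13.32 and 9.12 to 10.10). Keeping that array in the choice would have left 9 of the 18 genes. The middle-aged male array of larval 2.5SY and adult 1SY replicate 3, which the choice used, had a 3′ minus 5′ difference of 3.79 in the Actin control and 1.40 in the GAPDH control, against 2.12 to 3.38 and 0.512 to 1.20 in 214 other arrays, a measure that rises with RNA degradation. In the eIF4A control its difference of 3.27 lay within their range of 2.01 to 3.43. Without it 15 of the genes would have been chosen, the exceptions being CG30026, CG33469 and CG34054.

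A predicted gene keeps its annotation number until it is studied and named, and its protein family is often all that is known of it. CG7017 and CG7298 encode proteins with peritrophin-type chitin-binding domains, of the kind found in the peritrophic matrix that lines the insect midgut. CG7763 encodes a C-type lectin, a family of carbohydrate-binding and often secreted proteins. CG18563 and CG9733 belong to the trypsin-like serine protease family, and CG9733 carries a CLIP domain, which is typical of proteases in the haemolymph cascades that serve Toll signalling and melanisation. CG4757 encodes a carboxylesterase-like protein, CG10814 resembles gamma-butyrobetaine dioxygenase, an enzyme of carnitine synthesis, and CG8066 is cystatin-like, a family of cysteine protease inhibitors. The other 10 genes are given by number only. A rise of antimicrobial peptide transcripts with age is well known in flies, which is why genes of that response are set beside the 18 below.

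On the standard adult diet, which chose the genes, the old minus middle-aged difference ran between 0.51 (CG9689) and 3.16 (CG7763) in females and between 0.51 (CG42807) and 3.35 (CG7017) in males. These values describe the choice and were not tested. CG7017 in males had 8.78 as its lowest, 10.11 as its median and 10.67 as its highest old value, against 4.71, 6.94 and 8.29 in middle-aged males. It was the only one of the 18 whose old arrays on this diet all lay above the middle-aged arrays. These arrays chose the genes, and the share of all probe sets with such a separation on this diet was not taken. CG7763 in old females reached 10.84, with a median of 9.28 and a low of 5.71, against 6.71, 5.52 and 4.86 in middle-aged females. Just inside the limit stood CG9689 (0.51 in females), CG42807 (0.51 in males) and CG13488 (0.52 in females). Just outside it stood CG5070 (0.49 in females), CG4269 (0.48 in females) and CG30098 (0.48 in males), while CG14957 missed only the level, with an old female mean of 5.77. A limit of 0.75 would have kept 4 genes, CG7017, CG13324, CG7298 and CG9733.

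**Figure D1:**
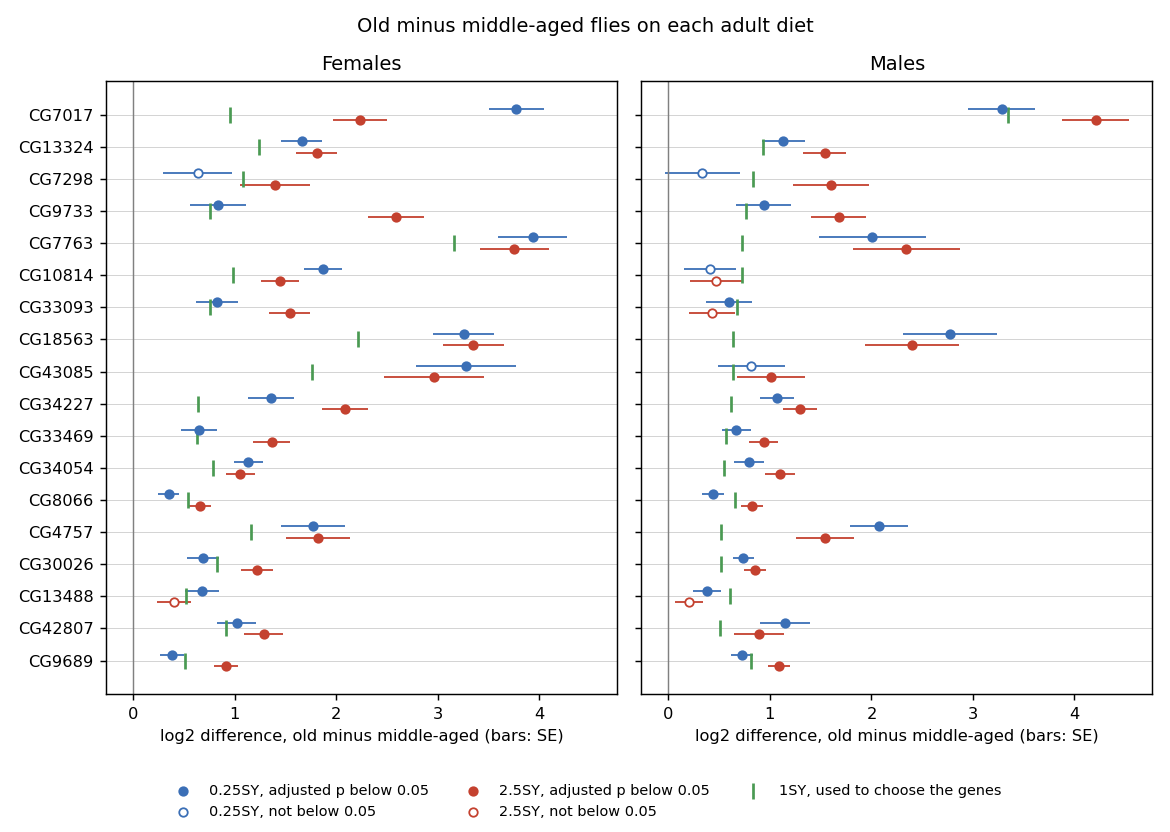
Old minus middle-aged log2 difference of each gene in females (left) and males (right) on adult 0.25SY (blue) and 2.5SY (red), with bars for the standard error of the fit and filled points for an adjusted p below 0.05. Green ticks mark the 1SY difference that chose the genes; all points lie above 0, and 8 of the 72 tested differences are open.

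The flies on the other 2 adult diets played no part in the choice and allowed a test of the same age difference. In females, 17 of the 18 genes were higher in old than in middle-aged flies on 0.25SY, where 24.6% of all 18769 probe sets rose, and 17 on 2.5SY, where 7.28% rose (limma, Benjamini-Hochberg adjusted over all probe sets, threshold 0.05). In males, 15 rose on 0.25SY, with 13.1% of all probe sets higher, and 15 on 2.5SY, with 19.1% higher. With the 3 old male arrays kept, the male counts were 13 and 16. Among the other CG genes that reached the level, 40.7% and 14.5% rose in females on the 2 diets and 19.9% and 29.2% in males. None of the 18 fell in any of the 4 comparisons, at limma's adjusted threshold or at an unadjusted p below 0.05, while 21.2% and 8.65% of all probe sets fell in females and 12.6% and 15.8% in males. The median difference over the 18 was 1.08 and 1.49 in females and 0.81 and 1.09 in males, on 0.25SY and 2.5SY in turn, beside medians over all probe sets that lay within 0.02 of 0. All 4 rises were found for 13 of the genes. CG33093 and CG43085 rose in 3 of the comparisons, and CG7298, CG10814 and CG13488 in 2.

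Complete separation of old from middle-aged arrays was less frequent. Every old array lay above every middle-aged array for CG7763 and CG18563 in females on 0.25SY (0.192% of all probe sets), for CG7017 and CG33469 in females on 2.5SY (0.421%), for CG30026 in males on 0.25SY (0.773%) and for CG7017 in males on 2.5SY (2.49%). For the other genes, and for these genes in the other comparisons, the ranges overlapped.

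The highest single difference was that of CG7017, one of the chitin-binding genes, which rose in all 4 comparisons. On 0.25SY it ran between 8.43 and 10.31 with a median of 9.41 in old females, against 4.70 to 8.55 with a median of 5.27 in middle-aged females, and the difference was 3.77 ± 0.27 (SE, adjusted p = 4.13e-21, limma). On 2.5SY old females lay between 8.27 and 9.77 (median 8.96) and middle-aged females between 5.47 and 8.10 (median 6.67), a difference of 2.23 ± 0.27 (adjusted p = 2.23e-10). Old females were thus at much the same level on both foods, and the middle-aged females differed more. In males on 0.25SY the old arrays held 7.41 to 9.43 (median 8.61) and the middle-aged arrays 4.26 to 9.37 (median 4.88), a difference of 3.28 ± 0.329 (adjusted p = 9.76e-14). In males on 2.5SY the old arrays held 8.38 to 10.69 (median 10.00) and the middle-aged arrays 4.62 to 7.79 (median 5.35), a difference of 4.21 ± 0.329 (adjusted p = 1e-18).

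The other chitin-binding gene, CG7298, had a different course. In females on 0.25SY its old arrays (11.42 to 12.96, median 12.40) overlapped almost wholly with the middle-aged arrays (10.40 to 12.96, median 11.77), and the difference of 0.63 ± 0.344 did not pass the test (adjusted p = 0.131). In females on 2.5SY the old arrays held 10.63 to 11.83 (median 11.21) and the middle-aged arrays 7.46 to 11.55 (median 9.91), and CG7298 rose by 1.40 ± 0.344 (adjusted p = 0.00135). Males gave 0.33 ± 0.372 on 0.25SY (adjusted p = 0.565) and 1.60 ± 0.372 on 2.5SY (adjusted p = 0.000288). The highest middle-aged male value on 0.25SY, 11.12, came from the larval 0.25SY replicate 1 array, whose Actin 3′ minus 5′ difference of 4.82 was the highest of all arrays.

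CG7763, the C-type lectin, was near the bottom of its range in nearly all middle-aged flies. In females on 0.25SY its old arrays held 6.97 to 11.55 (median 9.06) and its middle-aged arrays 4.42 to 5.90 (median 4.82), a difference of 3.93 ± 0.34 (adjusted p = 4.81e-17). In females on 2.5SY the old arrays held 6.35 to 11.25 (median 9.37) and the middle-aged arrays 4.66 to 7.46 (median 5.26), a difference of 3.75 ± 0.34 (adjusted p = 4.69e-15). Old females therefore spread over more than 4 log2 units on both foods while middle-aged females stayed low. In males CG7763 rose by 2.01 ± 0.525 on 0.25SY (adjusted p = 0.002, and 0.0602 without replicate 3) and by 2.34 ± 0.525 on 2.5SY (adjusted p = 0.000175), where old arrays reached 12.13 (median 7.98) and middle-aged arrays 10.99 (median 5.03). High single arrays of middle-aged males were thus part of the spread, and another stood at 11.13 on 1SY.

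The serine protease gene CG18563 had a similar size of rise in each of the 4 comparisons. On 1SY, which chose the gene, the rise was 2.21 in females and 0.64 in males. In females on 0.25SY the old arrays held 7.72 to 10.36 (median 8.94) and the middle-aged arrays 4.96 to 7.46 (median 5.68), a difference of 3.25 ± 0.299 (adjusted p = 7.72e-16), and on 2.5SY the difference was 3.35 ± 0.299 (adjusted p = 3.16e-15). In males on 0.25SY the old arrays held 5.17 to 9.67 (median 8.17) and the middle-aged arrays 4.21 to 6.77 (median 5.10), a difference of 2.77 ± 0.461 (adjusted p = 1.15e-06). On 2.5SY males gave 2.40 ± 0.461 (adjusted p = 1.28e-05), with old arrays at 6.92 to 10.43 and middle-aged arrays at 4.73 to 9.44. Male ranges overlapped on both foods.

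CG9733, the CLIP-domain protease gene, rose most on the rich food. In females on 2.5SY the old arrays held 7.57 to 10.46 (median 8.99) and the middle-aged arrays 5.41 to 7.62 (median 6.28), so that 11 of 12 old arrays lay above all middle-aged arrays and the difference was 2.59 ± 0.276 (adjusted p = 2.45e-12). On 0.25SY old females held 6.43 to 7.53 (median 6.74) and middle-aged females 5.29 to 8.78 (median 5.87), a difference of 0.84 ± 0.276 (adjusted p = 0.00869). Males gave 1.68 ± 0.274 on 2.5SY (adjusted p = 3.9e-07) and 0.94 ± 0.274 on 0.25SY (adjusted p = 0.00618). Without replicate 3 the calls of CG9733 on 0.25SY were lost in females (adjusted p = 0.107) and males (adjusted p = 0.0958).

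**Figure D2:**
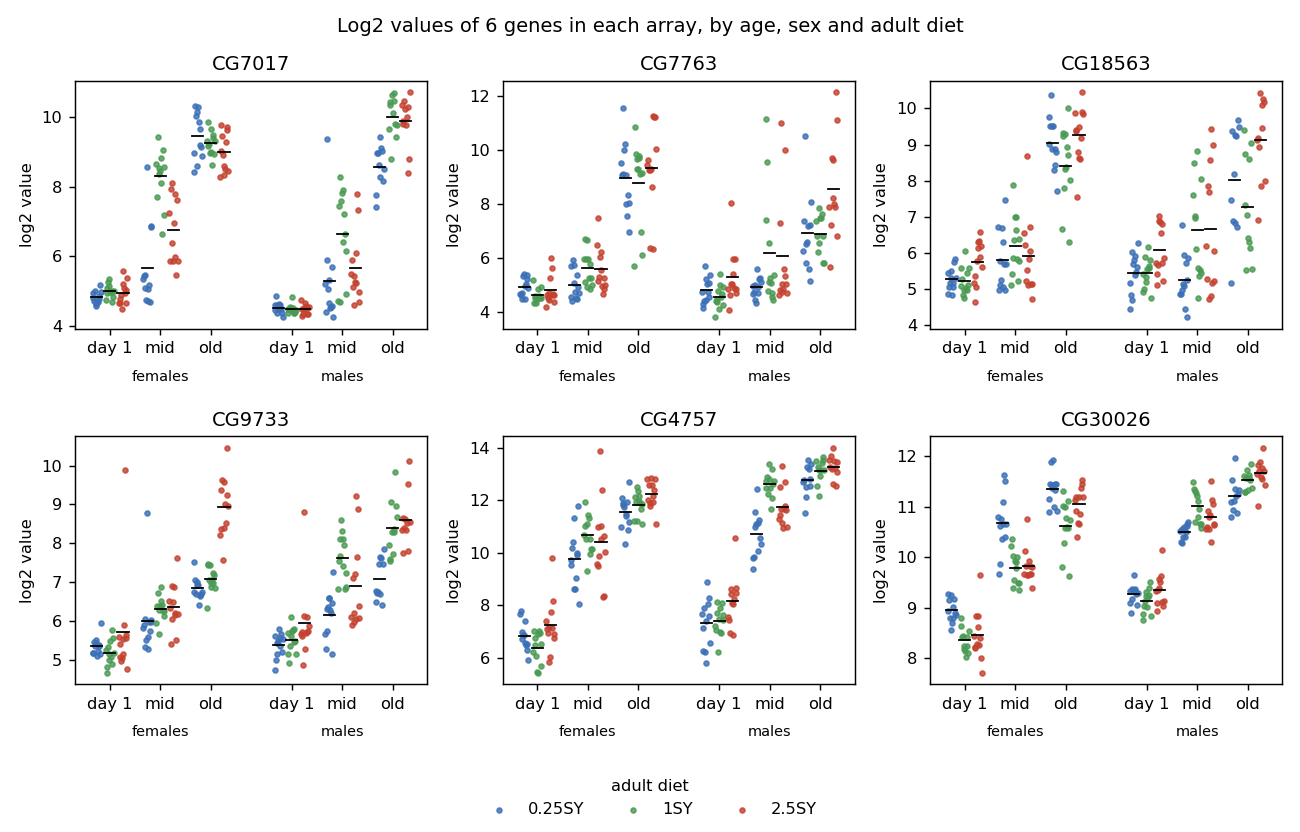
Log2 value of every array for 6 of the genes, by sex, age and adult diet, with a bar for each group mean and without the 3 old male arrays left out. CG7763 in females on 0.25SY and CG7017 in males on 2.5SY show old arrays wholly above middle-aged ones, whereas CG9733 has high single arrays on day 1 and at middle age.

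The carboxylesterase-like gene CG4757 rose by a similar amount in all 4 comparisons. Its rise on 1SY, which chose the gene, was 1.16 in females and 0.52 in males. In old females its mean was 11.54 ± 0.63 on 0.25SY and 12.25 ± 0.53 on 2.5SY, against 9.77 ± 1.10 and 10.43 ± 1.57 in middle-aged females on the same foods (SD, n = 12 each), rises of 1.77 ± 0.314 and 1.82 ± 0.314 (SE, adjusted p = 1.43e-06 and 3.47e-06). Old males averaged 12.77 ± 0.59 and 13.29 ± 0.43 (SD, n = 11 each), against 10.71 ± 0.87 and 11.77 ± 0.73 in middle-aged males (SD, n = 12 each), rises of 2.08 ± 0.286 and 1.54 ± 0.286 (SE, adjusted p = 7.78e-09 and 6.24e-06). CG8066, the cystatin-like gene, had small rises with little spread, between 0.35 ± 0.106 in females on 0.25SY (adjusted p = 0.0046, and 0.152 and 0.132 without replicate 2 and without replicate 3) and 0.82 ± 0.108 in males on 2.5SY (adjusted p = 8.32e-10).

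CG10814, which resembles a carnitine-synthesis enzyme, passed the test in females and not in males. Old females on 0.25SY held 8.28 to 11.53 (median 9.70) and middle-aged females 6.93 to 9.31 (median 7.71), a difference of 1.86 ± 0.188 (adjusted p = 4.59e-14), and on 2.5SY the difference was 1.44 ± 0.188 (adjusted p = 2.1e-09). Males gave 0.41 ± 0.257 (adjusted p = 0.254) and 0.47 ± 0.257 (adjusted p = 0.159). On the 1SY food that chose the gene, old males held 6.34 to 10.05 (median 8.06) and middle-aged males 5.98 to 9.42 (median 7.05), with higher medians at both ages than on the other foods.

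Among the 10 genes without a stated family, 7 rose in all 4 comparisons: CG13324, CG34227, CG33469, CG34054, CG30026, CG42807 and CG9689. CG13324 gave 1.66 ± 0.201 and 1.81 ± 0.201 in females and 1.13 ± 0.211 and 1.54 ± 0.211 in males, on 0.25SY and 2.5SY in turn. CG34227 gave 1.36 ± 0.228 and 2.08 ± 0.228 in females and 1.07 ± 0.171 and 1.30 ± 0.171 in males. These were the 2 of the 7 whose difference exceeded 1 everywhere. CG33469 in females on 2.5SY had a narrow old range of 7.22 to 7.89 above a middle-aged range of 5.02 to 6.92, and CG30026 in males on 0.25SY had old arrays at 10.79 to 11.96 above middle-aged arrays at 10.28 to 10.69. The smallest difference among the 7 was 0.38 ± 0.118 for CG9689 in females on 0.25SY (adjusted p = 0.00525, and 0.195 with 0.24 without replicate 3).

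The remaining 3 of these genes were less regular. CG43085 rose by 3.28 ± 0.493 in females on 0.25SY (adjusted p = 3.15e-08), where old arrays held 6.94 to 11.02 (median 9.62) and middle-aged arrays 4.52 to 8.94 (median 5.72), and by 2.97 ± 0.493 on 2.5SY (adjusted p = 1.42e-06). In males it gave 0.82 ± 0.334 on 0.25SY (adjusted p = 0.0608) and rose by 1.01 ± 0.334 on 2.5SY (adjusted p = 0.0123), a call lost with array weights (0.77, adjusted p = 0.0738) and without replicate 1, 2 or 4 (0.63, adjusted p = 0.235, without replicate 2). CG33093 rose in females by 0.82 ± 0.203 and 1.54 ± 0.203 (adjusted p = 0.000395 and 3.27e-09). In males it rose by 0.60 ± 0.227 on 0.25SY (adjusted p = 0.0426), a call lost when all 216 arrays were used (adjusted p = 0.073), and gave 0.43 ± 0.227 on 2.5SY (adjusted p = 0.138). CG13488 rose by 0.68 ± 0.168 in females on 0.25SY (adjusted p = 0.000401) and by 0.38 ± 0.139 in males on 0.25SY (adjusted p = 0.0326, and 0.0916 with all 216 arrays), and gave 0.40 ± 0.168 and 0.20 ± 0.139 on 2.5SY (adjusted p = 0.104 in females and 0.279 in males).

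Day 1 flies were not used in the choice, and most of the genes were already higher at middle age than on day 1. On 0.25SY and 2.5SY food combined, 14 of the 18 were higher in middle-aged than in day 1 females, where 25.1% of all probe sets rose and 32.1% fell, and 12 in males, where 37.4% rose and 34.3% fell. Among the other CG genes that reached the level, 39.6% rose in females and 59.5% in males, beside 14 of 18 and 12 of 18 here. The male count was thus near the share of those genes. The median difference over the 18 was 1.02 in females and 1.05 in males, beside 0.00147 and 0.194 over those other CG genes. CG33093 was the 1 gene that fell, by 1.07 in males (SE 0.156, adjusted p = 3.31e-09), while females gave -0.03 ± 0.144. These middle-aged arrays also enter the age comparisons above, so that the 2 sets of differences are not independent.

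The courses before middle age differed between the genes. CG4757 rose steeply before middle age, by 3.06 ± 0.222 in females and 3.50 ± 0.197 in males, with means of 6.82 ± 0.82 and 7.63 ± 0.91 on day 1 (SD, n = 36 each). CG7298 in females was likewise 3.69 ± 0.243 higher at middle age than on day 1, more than its later rise on either food. CG7763 and CG18563 stayed near their day 1 level until middle age, with differences of 0.43 ± 0.24 and 0.35 ± 0.211 in females and 0.45 ± 0.361 and 0.21 ± 0.318 in males, none past the test. CG43085 gave -0.29 ± 0.348 and 0.20 ± 0.23, also not past it. Several others climbed at both steps, among them CG34054 (1.57 ± 0.1 in females and 1.56 ± 0.104 in males) and CG30026 (1.55 ± 0.11 and 1.34 ± 0.0731). CG13488 rose by 1.98 ± 0.119 before middle age in females and by 0.38 ± 0.0953 in males.

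**Figure D3:**
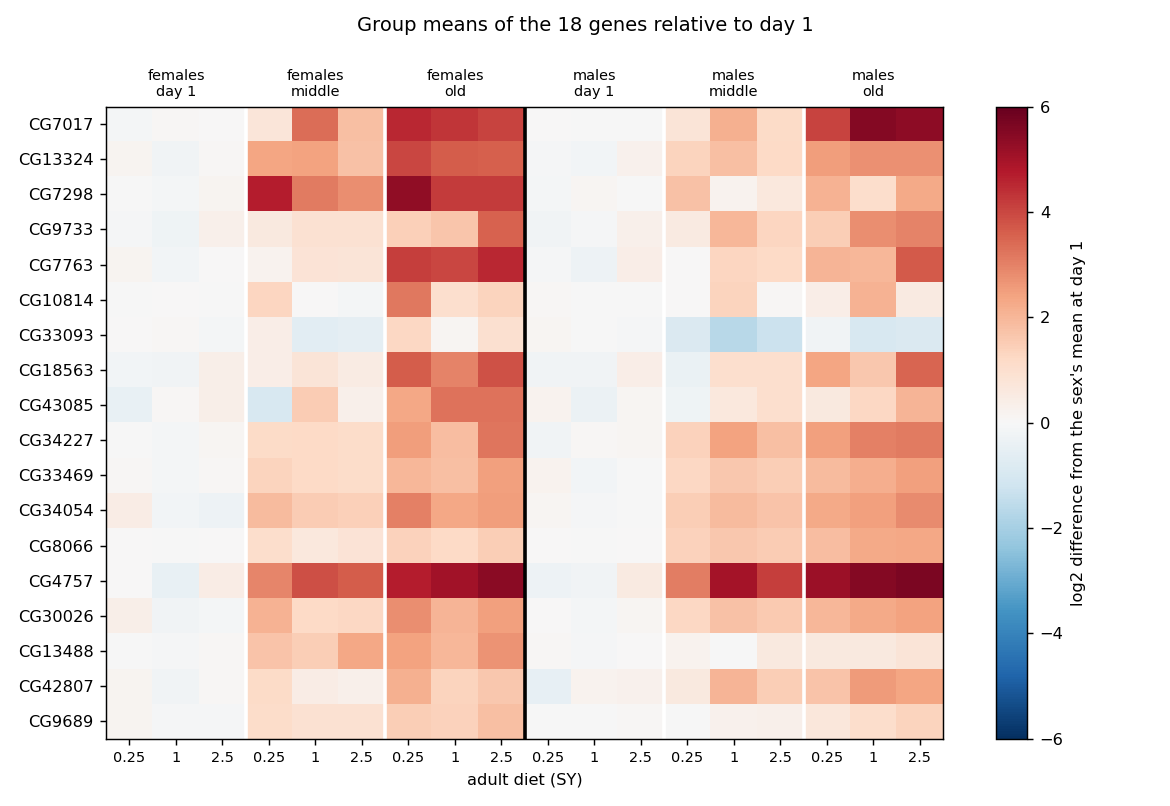
Group means of each gene on day 1, at middle age and at old age, by sex and adult diet, as the log2 difference from the mean of the day 1 arrays of that sex. CG4757 is far above day 1 by middle age. CG7763 and CG18563 are higher in the old than in the middle-aged column on each food. Their middle-aged columns on 1SY also lie above day 1.

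The adult diets allowed the question of whether the level of these genes followed the food at a given mortality. In middle-aged females 3 of the 18 were higher on 2.5SY than on 0.25SY (25.6% of all probe sets were) and 7 were lower (22% were). In middle-aged males 5 were higher (4.78%) and 1 was lower (4.22%). In old females 3 were higher (7.5%) and 4 lower (6.44%), and in old males 10 were higher (10.4%; 4 to 12 when the arrays of 1 replicate number were left out) and none lower (9.09%; 1 at an unadjusted p below 0.05). Among the other CG genes that reached the level, 40.5% were higher and 32.1% lower in middle-aged females, and 8.9% and 8.01% in middle-aged males. These shares were 13% and 13.3% in old females, and 15.8% and 13.6% in old males. The median difference over the 18 was -0.22 in middle-aged and 0.14 in old females, and 0.34 in middle-aged and 0.52 in old males. The same arrays serve the age and the diet comparisons.

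CG10814 was lower on the rich food in females of both ages. It held 6.13 to 7.03 (median 6.37) on 2.5SY and 6.93 to 9.31 (median 7.71) on 0.25SY in middle-aged females, a difference of -1.43 ± 0.188 (adjusted p = 5.08e-10), and -1.85 ± 0.188 in old females (adjusted p = 1.85e-13). CG7298 was also lower on 2.5SY, by -1.90 ± 0.344 in middle-aged females (adjusted p = 1.72e-06) and -1.13 ± 0.344 in old females (adjusted p = 0.0145, and 0.0938 and 0.135 without replicate 3 and without replicate 4). Its call in middle-aged males (-1.09 ± 0.362, adjusted p = 0.0398) was lost without the array of high Actin 3′ minus 5′ difference (-0.83, adjusted p = 0.158). CG33093, CG30026, CG42807, CG13324 and CG34054 were lower on 2.5SY in middle-aged females, by between -0.98 and -0.43.

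CG9733 moved the other way. In old females it was higher on 2.5SY than on 0.25SY by 2.10 ± 0.276 (adjusted p = 2.34e-09), with the lowest 2.5SY array (7.57) above the highest 0.25SY array (7.53), and in old males by 1.48 ± 0.281 (adjusted p = 3.67e-05). In old males CG7763 (1.50 ± 0.539, adjusted p = 0.0377), CG43085 (1.43 ± 0.343, adjusted p = 0.00114) and CG7017 (1.30 ± 0.338, adjusted p = 0.00285) were also higher on 2.5SY. Without replicate 2 all 3 calls were lost, with 0.75 for CG7763 (adjusted p = 0.493), 1.07 for CG43085 (adjusted p = 0.0652) and 1.10 for CG7017 (adjusted p = 0.0815). CG43085 was higher on 2.5SY in middle-aged flies of both sexes, by 1.29 ± 0.493 in females (adjusted p = 0.0242) and 1.23 ± 0.325 in males (adjusted p = 0.0063). Without replicate 3 these were 0.84 (adjusted p = 0.304) and 0.79 (adjusted p = 0.122). CG18563 (1.41 ± 0.449) and CG4757 (1.06 ± 0.278) were higher in middle-aged males (adjusted p = 0.0313 and 0.00634). With all 216 arrays neither call held (adjusted p = 0.0711 and 0.0851), and that of CG18563 was lost under 6 further settings.

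**Figure D4:**
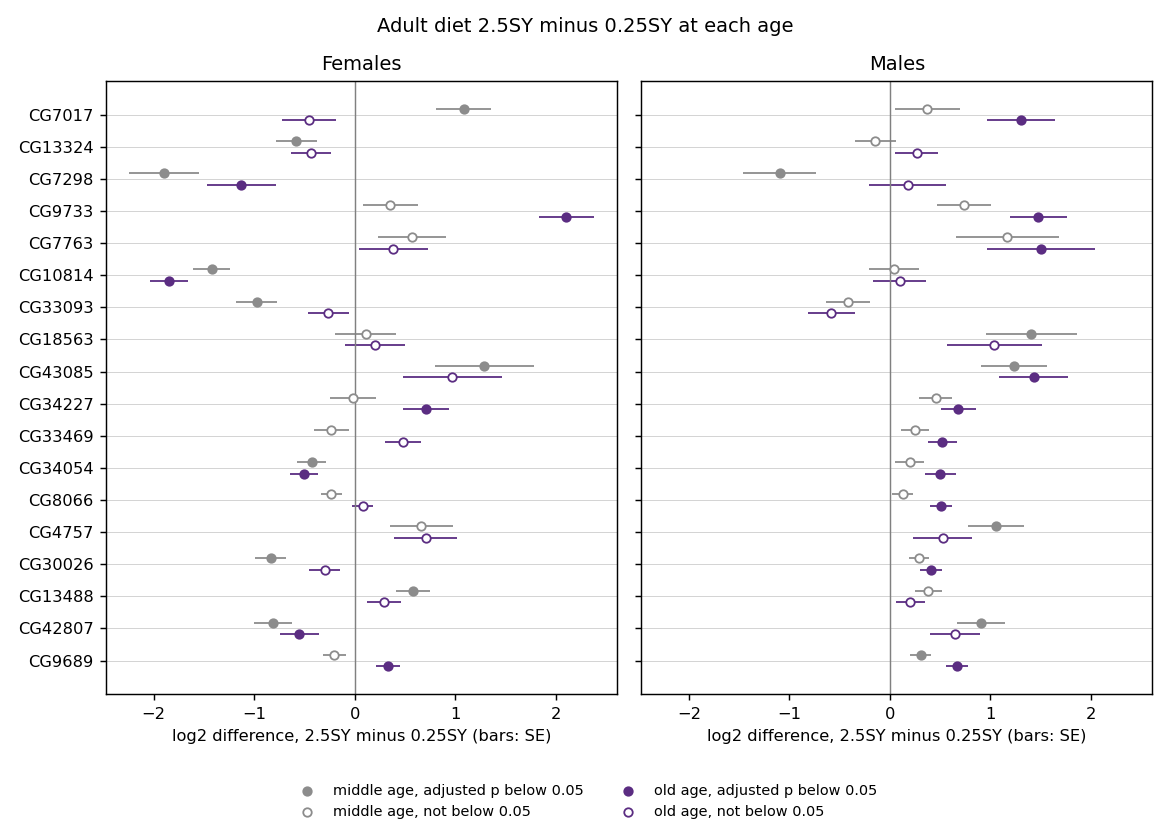
Log2 difference of 2.5SY minus 0.25SY adult food for each gene in middle-aged (grey) and old (purple) females and males, with the standard error of the fit and filled points for an adjusted p below 0.05. CG10814 and CG7298 lie left of 0 in females, and CG9733 lies right of 0 in old flies of both sexes.

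Whether the age difference itself depended on food was tested as an interaction. In females the rise with age was greater on 2.5SY than on 0.25SY for 4 genes (22.1% of the other CG genes that reached the level and 14.1% of all probe sets) and smaller for 1 (30.4% and 18.6%), which is no greater share of the 18 than of the other CG genes beyond rounding. CG9733 gained 1.75 ± 0.391 (adjusted p = 0.000252), CG33093 0.71 ± 0.287 (adjusted p = 0.0458), CG33469 0.71 ± 0.252 (adjusted p = 0.0216) and CG9689 0.53 ± 0.167 (adjusted p = 0.00849). CG7017 gave -1.54 ± 0.383 (adjusted p = 0.000905), its middle-aged females being higher on 2.5SY than on 0.25SY. Of these calls, that of CG33093 was lost under 8 of the alternative settings (0.35, adjusted p = 0.467, without replicate 1), that of CG33469 under 4 (0.58, adjusted p = 0.158, without replicate 4), and that of CG9689 without replicate 1 (0.41, adjusted p = 0.14) and without replicate 2 (adjusted p = 0.0552). In males none of the 18 passed this test in limma (1.76% of all probe sets were higher and 1.95% lower), and 4 were higher at an unadjusted p below 0.05.

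The female minus male difference in the age change, over 0.25SY and 2.5SY, passed the test for 5 genes, all with a greater rise in females (11.9% of all probe sets were higher and 15% lower). Among the other CG genes that reached the level, 20% were higher and 21% lower. CG43085 gave 2.21 ± 0.429 (adjusted p = 1.22e-05), CG7763 1.67 ± 0.444 (adjusted p = 0.00174), CG10814 1.22 ± 0.226 (adjusted p = 4.52e-06), CG33093 0.67 ± 0.217 (adjusted p = 0.0125) and CG34227 0.54 ± 0.205 (adjusted p = 0.0375). CG33093 gave 0.39 without replicate 3 (adjusted p = 0.256), and the call of CG34227 was lost under 5 of the alternative settings, with 0.34 without replicate 4 (adjusted p = 0.353). None was lower at the adjusted threshold in limma and 2 were at an unadjusted p below 0.05, CG7017 (-0.74 ± 0.304, adjusted p = 0.0555) and CG9689 (-0.26 ± 0.114, adjusted p = 0.0761). The choice required a rise in each sex on 1SY, so genes with a rise in 1 sex alone could not enter.

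Larval food left few differences in these genes. At the later ages none of the 18 passed the test in females (0.0852% of all probe sets did) or in males (3.69%), and at an unadjusted p below 0.05 there were 0 in females and 4 in males. On day 1, CG9689 differed in females (38.9% of all probe sets did, and 63.0% of the other CG genes that reached the level) in 1 test over the 3 larval foods (adjusted p = 4.39e-07), with -0.60 ± 0.118 for larval 2.5SY minus 0.25SY and -0.73 ± 0.118 for larval 1SY minus 0.25SY. In day 1 males 5.26% of all probe sets passed the same test, and 9.86% of the other CG genes that reached the level. CG42807 passed it (adjusted p = 8.73e-06), with 1.39 ± 0.24 for larval 2.5SY minus 0.25SY and 1.36 ± 0.24 for larval 1SY minus 0.25SY. CG34227 also passed it (adjusted p = 0.0152), with 0.53 ± 0.166 and 0.64 ± 0.166 for the same differences.

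The genes were unevenly spread over the chromosomes: 9 of the 18 (50%) lie on 2R, against 19.5% of the 5137 CG genes with a position, 4 on 3R, 3 on 3L, 1 on 2L and 1 on X. Their gene spans had a median of 1244.5 bases, against 1718 bases for those CG genes. CG30026 and CG34054 are immediate neighbours on 2R, and the aquaporin gene Drip separates them from CG7763. Drip fell by 0.41 in females on 0.25SY (adjusted p = 4.95e-06) and gave -0.09 in females on 2.5SY, and it rose by 0.21 and 0.20 in males (adjusted p = 0.0129 and 0.0179). CG7298 and CG7017 lie near each other on 3L with CG7290 and CG6996 between them. CG6996 was called in none of the 4 age comparisons and CG7290 only in males on 0.25SY, where it fell by 0.18 (adjusted p = 0.0136). CG6933, on the other side of CG7017, fell by 1.93 in females on 0.25SY and rose by 1.13 in females on 2.5SY and by 1.73 in males on 2.5SY, with -0.02 in males on 0.25SY. CG13323, directly beside CG13324, rose in all 4 comparisons, by 0.48 and 0.64 in females and by 0.40 and 0.43 in males. Of the 25 measured genes directly beside the 18, 20% were higher and 28% lower in females on 0.25SY (24.6% and 21.2% of all probe sets), and 24% and 8% in males on 0.25SY (13.1% and 12.6%). On 2.5SY, 32% were higher and 4% lower in females (7.28% and 8.65%), and 48% and 16% in males (19.1% and 15.8%).

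Genes of the antimicrobial response rose over the same ages. Of 17 measured genes of a list of 33 antimicrobial peptides and regulators, among them AttD, DptB, Drs, Mtk and PGRP-SB1, 13 were higher in old than in middle-aged females on 0.25SY and 14 on 2.5SY, and 16 and 17 in males, with none lower. Their mean on day 1, at middle age and at old age was 9.33, 10.80 and 11.90 in females and 9.32, 11.09 and 12.31 in males. Within groups of the same sex, age and foods, the deviation of each of the 18 genes was set against that of the immune list over 108 female and 105 male arrays, which share their normalization and RNA quality. The 1SY arrays that chose the genes are among them. All 18 correlations were above 0 in both sexes, where 40.4% of all probe sets lay above 0 in females and 47.1% in males. They ran at 0.197 to 0.645 (median 0.368) in females and 0.109 to 0.611 (median 0.425) in males, beside medians over all probe sets of -0.0442 and -0.00989. CG33469 (0.645), CG4757 (0.621) and CG30026 (0.602) were highest in females, and CG9733 (0.611) and CG4757 (0.576) in males. CG7298 was lowest in females and CG9689 in males. The immune list was not alone in this: with 16 stress genes, 18 of the 18 genes lay above 0 in females (0.027 to 0.717, median 0.281) and 16 in males (-0.164 to 0.516, median 0.227), beside medians over all probe sets of -0.0291 and -0.0091. Haemocyte and fat body lists also gave values above 0 for most of the genes in both sexes. For these lists no share over all probe sets was taken. With neuronal genes 13 of the 18 lay above 0 in females (41.1% of all probe sets) and 5 in males (46.2%). Eye genes gave 14 in females (40.0%) and 7 in males (48.8%). In males CG7763 (0.438 against 0.294), CG43085 (0.281 against 0.189) and CG9689 (0.171 against 0.109) were closer to haemocyte genes than to the immune list. In females so were CG8066 (0.495 against 0.282), CG9689 (0.458 against 0.251), CG13488 (0.343 against 0.220) and CG7298 (0.295 against 0.197). The same held in females for CG33093 (0.460 against 0.371), CG7763 (0.264 against 0.222) and CG34054 (0.490 against 0.480). The other genes had a higher value with the immune list than with haemocyte genes. In females CG9733 (0.717) and CG34227 (0.549) were closer to the stress list than to the immune list (0.570 and 0.429). Also in females, CG9689 was closer to eye genes (0.692, against 0.251 with the immune list) and CG8066 to neuronal genes (0.574, against 0.282). In males CG9689 had 0.235 with eye genes (0.109 with the immune list). CG8066 had 0.112 with neuronal genes in males, below its 0.207 with the immune list. Between the genes themselves the median over 153 pairs was 0.227 in females and 0.185 in males, and the neighbours CG30026 and CG34054 had the highest value in each sex, 0.835 and 0.789.

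**Figure D5:**
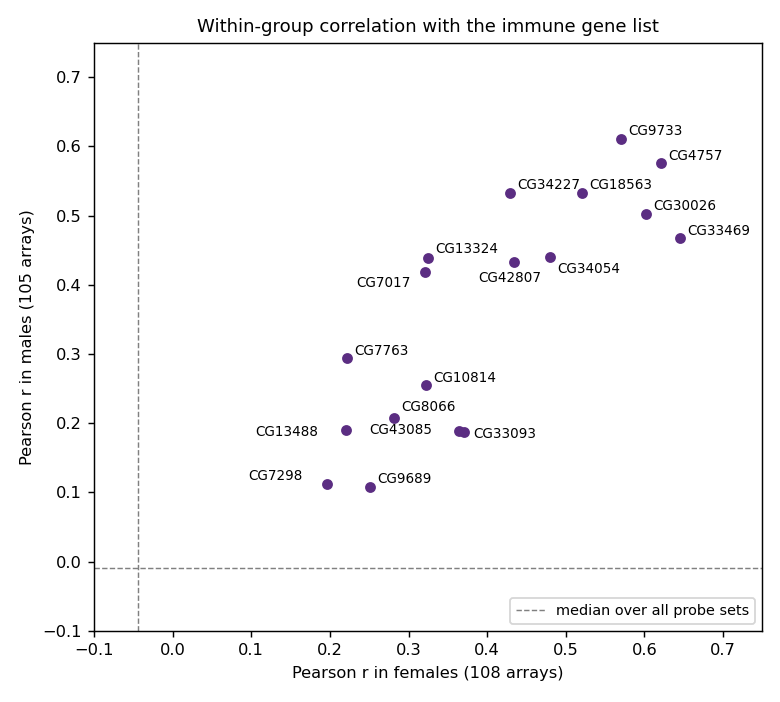
Correlation of each gene's within-group deviations with those of the mean of 17 immune genes, in females (horizontal axis, 108 arrays) and males (vertical axis, 105 arrays), with dashed lines at the median over all probe sets. All 18 points lie above both lines, with CG4757 and CG9733 toward the upper right and CG7298 and CG9689 toward the lower left.

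A single array of young flies, picked for the highest immune list among day 1 females, showed some of these genes high together. It is also among the 108 female arrays of the correlations above, and its weight in them was not tested. In the day 1 female array of larval 2.5SY and adult 2.5SY replicate 1 the immune list stood at 11.18, against 8.84 to 9.75 in the other 35 day 1 female arrays. In it 6 of the 18 genes (33.3%), and 2.96% of all probe sets, lay above all the other 35: CG9733 (9.89, others up to 5.96), CG33469 (7.49, up to 5.87), CG4757 (9.79, up to 8.15), CG34227 (11.04, up to 10.58), CG30026 (9.65, up to 9.27) and CG18563 (6.58, up to 6.32). CG7017 (4.95) and CG7763 (4.63) were not raised in it. CG43085 stood at 13.26 in another day 1 female array, with 8.52 as the next highest, and the immune list there was 9.46.

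Other tissues' genes changed over the same ages, and their part in the results above was not tested. In old against middle-aged females, 18 of 18 muscle genes were lower on 0.25SY and 8 on 2.5SY, 20 and 16 of 22 midgut peptidases were lower, and 17 and 2 of 20 neuronal genes were lower, with none of these lists having a higher gene. Of 16 eggshell and yolk genes, 8 were higher on 0.25SY and 6 lower on 2.5SY. Of 12 eye genes, 12 and 2 were lower in females and 4 and 2 in males. In males, 4 and 21 of the midgut peptidases and 14 and 12 of the neuronal genes were lower, with none higher. The male muscle genes went both ways, with 5 up against 10 down on 0.25SY food and 6 up against 8 down on 2.5SY food, and 10 and 20 of 23 male accessory gland genes were lower, with 1 higher on each food. Of 16 stress genes, 5 and 8 were higher in females and 7 and 10 in males, with 1 or 2 lower in each comparison.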

How the data were processed

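Whole-body RNA of 5 flies per sample was hybridized to Affymetrix Drosophila 2.0 arrays. The authors deposited log2 values, background-adjusted, quantile-normalized and summarized by RMA (version not given in the sources used here); their methods state that the sexes were normalized separately and that arrays of low quality were excluded, which are not identified there, and all 216 arrays were in the table used. Array data carry no counts, and precision rests on the number of arrays.

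From the 18952 probe sets, 183 controls were left out and 18769 tested. A gene took its brightest probe set that names that gene alone: 13647 probe sets named 1 gene, 402 several and 4720 none. For each sex a cell-means model over 27 groups was fitted with limma 3.58.1 in R 4.3.3 (108 female and 105 male arrays), with Benjamini-Hochberg adjustment and a threshold of 0.05, and 1 model over 54 groups gave the comparison of sexes. The steps were tested on simulated data. The 3 old male arrays that went against their labels were left out. CG8093 and CG17192 were not considered as members. The members, gene lists and left-out arrays were chosen with earlier results of these data known. All members are described, and the text names those with the widest differences in each comparison, those beside the limit, and those sharing a family or neighbourhood. Replicate numbers did not pair samples. Alternatives covered the limits of the choice, arrays left out, array weights, a filter on low values, centring, quantile normalization, blocks and single replicates left out.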

Additional observations from a re-analysis of the deposited data

Results flagged for a closer look

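The mean log2 value over the 18 genes was set apart in 1 of 4 replicates in 5 of 54 groups, by Dixon's test, which flags about 1 in 20 groups by chance. Old males of larval 0.25SY and adult 1SY replicate 3, left out above, stood at 7.07, against 9.23 to 9.48 in the other replicates. Old males of larval 0.25SY and adult 2.5SY replicate 3 stood at 9.05, against 9.68 to 9.77. Old males of larval 2.5SY and adult 0.25SY replicate 2 stood at 8.76, against 9.31 to 9.36. Day 1 males of larval 1SY and adult 0.25SY replicate 2 stood at 7.06, against 7.26 to 7.29, and day 1 females of larval 2.5SY and adult 1SY replicate 4 at 6.77, against 6.82 to 6.83.

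The age change differed between adult foods in females, as 2.5SY minus 0.25SY, for CG7017 (-1.54), CG9733 (1.75), CG33093 (0.71), CG33469 (0.71) and CG9689 (0.53). It differed between the sexes, as female minus male, for CG43085 (2.21), CG7763 (1.67), CG10814 (1.22), CG33093 (0.67) and CG34227 (0.54). Each of these differences passed limma's test of the interaction.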

How the results depend on the processing

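The counts of genes higher with age on 0.25SY and 2.5SY held within 1.5 times under every setting run; leaving out 1 replicate number at a time gave 14 to 17 and 17 in females and 12 to 15 and 14 to 16 in males. With the replicate block they were 17, 17, 15 and 15, and the count for age by food in females was 5 (4 without the block); same-numbered samples did not deviate together (mean correlation -0.001 in females and -0.004 in males), so the numbers were not taken as pairs. Of 3474 single-gene values under the alternatives, 3311 kept their call, 111 lost it, 52 gained it and 0 called values reversed; 60 uncalled values changed sign, up to a size of 0.42.

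The choice of genes was less stable: a limit of 0.75 left 4 genes and a limit of 1 left 0, keeping the old male array left 9, and leaving out a replicate number gave 13 to 20. Without the middle-aged male array of larval 2.5SY and adult 1SY replicate 3, left out after seeing the data, 15 remained, without CG30026, CG33469 and CG34054.

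For food in middle-aged females the count higher (3) was 5 with blocks of the provider's sample numbers and 1 to 4 with a replicate left out. For food in old females the count higher (3) was 1 with those blocks and 1 to 2 with a replicate left out, and the count lower (4) 1 to 4. For age by food in females the count higher (4) was 2 with those blocks and 1 to 6 with a replicate left out, and the count lower (1) 1 to 2. In middle-aged males the count higher (5) was 2 with all 216 arrays, 3 with the later ages alone and 2 to 4 with a replicate left out; the count lower (1) was 0 with all arrays, with the provider blocks, with the later ages alone and without the array of largest 3′ minus 5′ difference (added after seeing the data), and 0 to 1 with a replicate left out. In old males the count higher (10) was 4 to 12 and the count lower (0) 0 to 1 with a replicate left out.

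For larval food on day 1 the female count (1) was 2 with array weights, a mean filter of 5, quantile normalization, provider blocks or gene means, 5 without 4 further arrays of low weight (added after seeing the data) and 1 to 2 with a replicate left out; the male count (2) was 1 with all arrays and 1 to 2 with a replicate left out. For larval food at the later ages the male count (0) was 1 with array weights. For age by sex the count higher (5) was 3 to 5 with a replicate left out, and the count lower (0) was 1 with array weights, the filter, gene means or without the 4 further arrays, 2 with provider blocks and 0 to 1 with a replicate left out. The causes were not tested. Signal near the bottom of the scale limits the folds of CG7763, CG7017 and CG18563 at middle age.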
